A study of Mus musculus with 4 samples.

Results

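Adventitial-type fibroblasts of mouse mammary tumours were examined, as fibroblasts that carried messages of Clec3b, Dpt or Pi16. They numbered 504 of 36162 cell barcodes (61, 98, 204 and 141 in tumours 1 to 4). A barcode counted as a fibroblast when it held at least 15 UMIs (unique molecular identifiers, each a counted RNA molecule) of Col1a1, Col1a2 and Col3a1 together. It could hold at most 1 UMI of the mural genes Rgs5 and Higd1b, at most 1 of the macrophage genes C1qa and C1qb, and at most 3 of the keratin genes Krt8, Krt18, Krt5 and Krt14. This collagen gate left 1403 barcodes. The cells described here, called members, were chosen by their own UMI counts: at least 2 UMIs of Clec3b, Dpt and Pi16 together in a gated barcode. The 690 gated cells in which that sum was 0 are called marker-negative. The remaining 209 gated cells, with a sum of 1, entered neither group.

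The 4 tumour samples came from 3 female FVB mice aged 13 to 14 weeks. All samples carried the MMTV-PyMT transgene, in which a mammary tumour virus promoter drives the polyoma middle T oncogene in mammary epithelium. All also carried K14Cre, with Cre under a human keratin 14 promoter, and the Cre-dependent Rosa-tdTomato reporter, so there was no normal or untreated gland to compare with. Tumour 1 was pooled from multiple glands of mouse 1, and tumour 2 was inguinal, from mouse 2. Mouse 3 gave both tumour 3, which was thoracic, and tumour 4, which was inguinal. Tissue was dissociated with Liberase and dead cells were removed on a magnetic column before droplet capture.

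Adventitial fibroblasts line the outer wall of vessels and ducts in many organs. They are known for the genes Pi16, Clec3b, Dpt, Cd34 and Ly6a. Clec3b encodes tetranectin, a plasminogen-binding protein, Dpt encodes dermatopontin, a small matrix protein that binds decorin, and Pi16 encodes peptidase inhibitor 16. In tumours, fibroblasts that express Postn (periostin) or Lrrc15, and contractile ones that express Acta2 (smooth muscle actin), are often described as another state, which lays down and pulls on collagen matrix.

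Median depth was 1772, 3082.5, 2437.5 and 2245 UMIs per member in tumours 1 to 4, against 1909, 3694, 2970 and 2697 per marker-negative cell. Members were thus shallower in all 4 tumours. Of the member barcodes, 22 also occurred in another library, but no barcode was a member in more than 1. Markers of other cell types were counted in both groups, and their part in any difference was not tested. Over 11 macrophage markers outside the gate the summed level was 103 to 326 CPM (a gene's UMIs relative to all UMIs of the summed cells) in members and 187 to 428 in marker-negative cells. It was 76.8 to 242 against 91.6 to 172 for 11 mural markers, and 39.4 to 138 against 26.3 to 210 for 11 endothelial markers. For T cell markers it was 9.08 to 57.1 against 13.2 to 44.0, and for Schwann cell markers 34.2 to 102 against 39.5 to 236. For adipocyte markers it was 0 to 1.84 against 0 to 2.82, and for mesothelial markers 0 to 9.08 against 0 to 8.50. Of 7 adipocyte markers 6 were at 0 in members, among them Adipoq and Plin1, and of 6 mesothelial markers 4, among them Msln and Upk1b. Luminal epithelial markers summed to 1578 to 3442 CPM in members and to 784 to 4307 in marker-negative cells, so both groups held epithelial RNA. The 6 basal epithelial markers outside the gate summed to 299, 173, 212 and 319 CPM in members of tumours 1 to 4 and to 374, 1995, 418 and 729 in marker-negative cells, lower in members without overlap. Nearly all of that sum was Acta2, which is also on the matrix-type list.

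Members made up 0.699%, 1.02%, 2.42% and 1.50% of all barcodes in tumours 1 to 4, 1.22% ± 0.639 (SD, n = 3 mice). Among gated fibroblasts they were 29.2% in tumour 1 (95% exact Clopper-Pearson interval 23.1 to 35.9), 65.8% in tumour 2 (57.6 to 73.3), 32.2% in tumour 3 (28.6 to 36.0) and 34.2% in tumour 4 (29.6 to 39.0). These intervals cover counting error only. Tumour 2 had the fewest gated fibroblasts, 149, and the highest share of members, and its interval did not overlap those of the other 3 tumours. The thoracic and the inguinal tumour of mouse 3 had overlapping intervals. When every gated cell was thinned to 2000 UMIs and shallower cells were left out, the shares were 18.2%, 53.8%, 24.8% and 24.8%, over 77, 130, 501 and 286 cells. Without thinning, the shares in these same cells were 24.7%, 63.1%, 29.5% and 31.5%. Tumour 2 was again the highest. With 1 sample per gland and mouse, no comparison of glands or mice could be tested, and the shares are those of cells that survived dissociation and dead-cell removal.

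**Figure D1:**
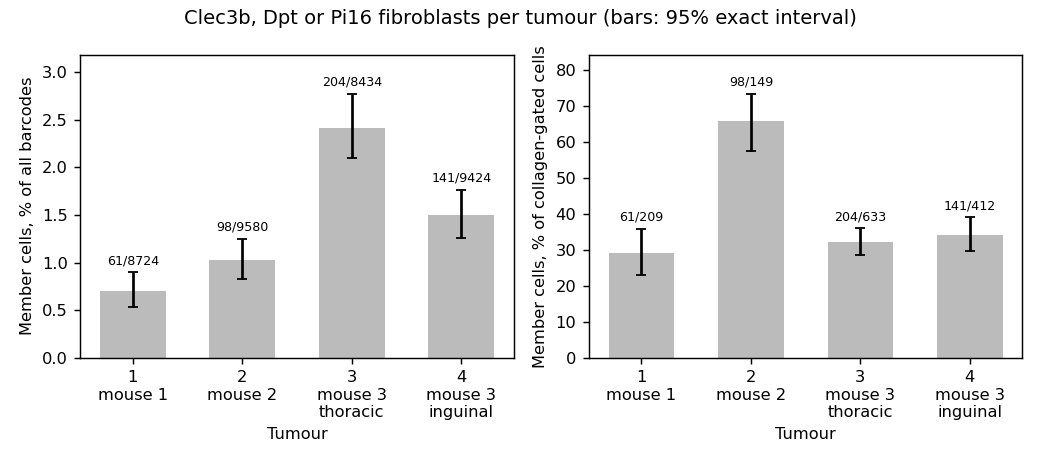
Share of member fibroblasts in each tumour, as a percentage of all barcodes (left) and of collagen-gated cells (right), with counts above the bars and 95% exact intervals for counting error. Tumour 2 stands highest on the right, at 65.8% of gated cells, and tumour 3 highest on the left, at 2.42% of barcodes.

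The genes that chose the members are given without a test. Pi16 was the most common of them, with a UMI in 406 of the 504 members (80.6%), against 286 for Clec3b (56.7%) and 279 for Dpt (55.4%). All 3 genes were present in 140 members, and Pi16 alone in 143 (28.4%), so the label by Clec3b or Dpt leaves out a part of the cells that the rule takes in. Clec3b stood at 1118, 1493, 1034 and 1253 CPM in the members of tumours 1 to 4, Dpt at 555, 736, 441 and 467, and Pi16 at 845, 799, 1005 and 1062. In keratin-gated epithelial cells, which should lack them, a UMI was found in 0.561% of 18350 cells for Clec3b, 0.158% for Dpt and 0.392% for Pi16, at higher median depth (2873 to 3849.5 UMIs). Just inside the threshold, 126 members held a sum of 2 and 71 a sum of 3. The 209 cells just outside held a sum of 1, and 118 members held 10 or more. The median sum was 4 in tumours 1, 3 and 4 and 7.5 in tumour 2.

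The label was checked against markers that the rule did not use. Mfap5, which encodes a microfibril-associated glycoprotein and is a known marker of such cells, was found in 97.6% of members and 90.9% of marker-negative cells, but in 1.71% of epithelial cells. It is therefore a gene of most gated fibroblasts here. Cd34 was found in 28.8% of members against 3.19% of marker-negative cells, and Ly6a, the gene of stem cell antigen 1, in 66.1% against 22.8%. After thinning to 2000 UMIs these shares were 24.5% against 1.36% for Cd34 and 64.9% against 18.1% for Ly6a. The members were not devoid of the other state. Postn was found in 82.1% of members and 82.5% of marker-negative cells, and 353 of the 504 members held at least 2 UMIs of Postn and Lrrc15 (66.2% ± 7.92, SD, n = 3 mice).

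Members were compared with marker-negative fibroblasts on counts summed per mouse. Among the genes that rose were Sfrp4, which encodes a secreted Wnt-binding protein, Tnxb, which encodes the matrix glycoprotein tenascin X, the complement genes C3 and C4b, and the surface genes Cd34, Ly6a and Ly6c1. Among those that fell were Tagln and Myl9, which encode proteins of the contractile apparatus, and the collagen gene Col11a1. With edgeR's quasi-likelihood test, mouse as a block and Benjamini-Hochberg adjustment, 189 of 3740 genes passed at an adjusted p of 0.05 (5.05% of those tested). Of them 145 were higher in members (3.88%) and 44 lower (1.18%). Without tumour 4 only 101 genes passed, 100 of them among the 189. Without mouse 3, which gave tumours 3 and 4, 224 passed, 124 of them among the 189. The libraries are separate samples of a single group. With mouse as a block, the p-values measure how much the difference between the groups varied over these 3 mice, not how much their levels did.

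Of 32 genes listed as adventitial, 25 passed the filter on low counts, 21 rose and none fell. The median log2 fold change of the 25 was 1.94, beside -0.01 over all genes tested. Without tumour 4, 15 of the 25 rose, and without mouse 3, 19 of 22 rose. Without the filter on low counts 22 of 32 rose. The lists were chosen with earlier results of these data known, so these counts describe the members and are no independent evidence. Tnxb stood at 324, 406, 242 and 208 CPM in the members of tumours 1 to 4 and at 12.8, 6.59, 13.2 and 5.50 in the marker-negative cells. The groups did not overlap, as was so for 9.22% of all genes tested. Its log2 fold change was 4.66 ± 0.28 (SE, adjusted p = 1.21e-06, 3 of 3 mice). Tnxb (ENSMUSG00000033327) lies on GRCm38 chromosome 17, 34670535 to 34719815, plus strand. Ly6c1, a surface gene with a close paralog that shares sequence, stood at 649, 896, 459 and 567 against 63.8, 19.8, 19.7 and 49.5 CPM. It rose by 4.10 ± 0.26. Cd34 was at 282, 206, 125 and 194 against 12.8, 19.8, 13.2 and 9.16 CPM, and rose by 3.80 ± 0.28. Members of every tumour were above marker-negative cells of every tumour for both genes. Ly6a rose by 2.94, from 183 ± 99.8 to 1421 ± 597 CPM (SD, n = 3 mice).

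Other genes of the adventitial list encode signals and enzymes. Sema3c, which encodes a secreted guidance cue, stood at 42.7, 154, 44.2 and 76.9 CPM in members and at 4.25, 6.59, 0 and 3.66 in marker-negative cells, where it rested on 4 UMIs. It rose by 4.82 ± 0.49 (adjusted p = 4.72e-05). Pcolce2, which encodes an enhancer of procollagen cleavage, rose by 4.38, and Has1, a hyaluronan synthase gene, by 4.19. Gda, which encodes guanine deaminase and is on no list, rose by 3.88 and did not overlap, at 59.8, 103, 38.7 and 56.9 against 0, 6.59, 1.88 and 7.33 CPM. Igfbp6, which encodes a binding protein of insulin-like growth factors, stood at 1469, 808, 988 and 982 against 196, 244, 103 and 220 CPM and rose by 2.57 ± 0.21. The microfibril gene Mfap5 rose by 0.95 ± 0.13 (adjusted p = 5.25e-04), with 2792, 3576, 3515 and 3522 against 1590, 2193, 1550 and 1537 CPM. So the marker given for these cells was higher in members without overlap, but less than 2-fold. Of 12 genes that led the rise, Dmkn (dermokine) had the fewest UMIs in marker-negative cells, 2 against 88 in members. That is a ratio of 65.5 with an exact counting interval of 17.6 to 550, and epithelial cells held 54.5 CPM of it.

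**Figure D2:**
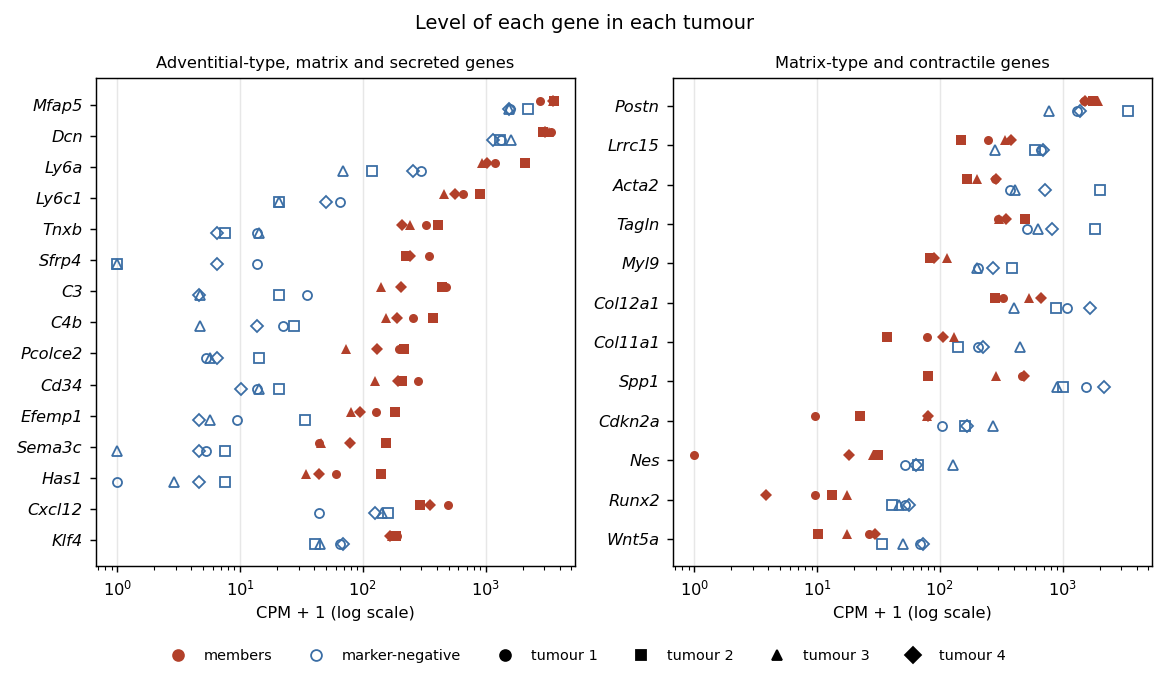
CPM plus 1 on a log axis in members (filled) and marker-negative fibroblasts (open), with 1 symbol shape per tumour, for adventitial-type, matrix and secreted genes (left) and matrix-type and contractile genes (right). Tnxb, Ly6c1 and Cd34 are apart in all 4 tumours, while Postn is not.

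Proteoglycans and hyaluronan hold water in the matrix. Of 15 proteoglycan and hyaluronan genes tested, 9 rose and none fell, with a median of 1.25. Dcn, which encodes decorin, stood at 3390, 2946, 3256 and 3018 CPM in members against 1335, 1310, 1608 and 1141, and rose by 1.25 ± 0.12 (adjusted p = 3.32e-05). The proteoglycan genes Gpc3 (glypican 3) and Ogn (osteoglycin) rose by 3.41 and 2.72. Prg4, the lubricin gene, rose by 3.18, but its levels overlapped between groups, at 68.3, 285, 36.9 and 65.5 against 8.50, 79.0, 0 and 0 CPM. Of 16 elastic fibre genes 6 rose and none fell. Efemp1, which encodes the elastic fibre protein fibulin 3, stood at 128, 182, 79.3 and 94.0 against 8.50, 32.9, 4.70 and 3.66 CPM and rose by 3.69 ± 0.38. Ltbp1, which encodes a binding protein of latent TGF-beta, rose by 2.86. Fbn1 rose by 0.56 with an adjusted p of 0.0446, which became 0.105 without tumour 1 and 0.137 without tumour 4. The elastic count was 3 without that tumour. Without mouse 3, 4 of 15 elastic fibre genes rose and 1 fell.

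Of 24 genes of collagen chains and their processing outside the gate, 1 fell and none rose, with a median of -0.22. This share is near the 5.05% called over all genes. The gene that fell was Col27a1, by 1.18 on the log2 scale, and it did not pass without tumour 2 (adjusted p = 0.0522) or tumour 4 (adjusted p = 0.0949). Without tumour 3, 6 of the 24 fell. Other collagen genes that passed were not on this list. Col11a1 and Col12a1 of the matrix-type list, Col4a1 and Col4a2 of the basement membrane list and Col26a1 fell. Col14a1 of the adventitial list rose. The gate genes are a description only: Col3a1 stood at 6403 ± 318 CPM in members and 4461 ± 660 in marker-negative cells (SD, n = 3 mice), and Col1a1 at 4689 ± 646 against 7210 ± 1245. Of 12 basement membrane genes 2 fell, Col4a1 by 0.99 and Col4a2 by 0.90, beside 5.05% called over all genes. None rose, and the list's median was 0.06. Col4a1 stood at 205, 218, 385 and 191 against 421, 283, 1145 and 264 CPM, highest in tumour 3 in both groups. Without tumour 3 its change was -0.57 (adjusted p = 0.0973), and without tumour 4 -1.02 (adjusted p = 0.0821). Col4a2 had adjusted p values of 0.136 and 0.0620 without these tumours. Fn1, the fibronectin gene, rose by 0.80 ± 0.14 (adjusted p = 0.00358), against the direction of most other matrix-type genes.

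Proteases and protease inhibitors moved in both directions, 5 of 20 up and 1 down. Mmp3, which encodes stromelysin 1, stood at 188, 478, 256 and 253 CPM in members and 25.5, 59.3, 45.1 and 56.8 in marker-negative cells, and rose by 2.64 ± 0.23 (adjusted p = 7.76e-06). Htra3 and Adamts15, both protease genes, rose by 2.32 and 2.60. Serpine2, which encodes protease nexin 1, fell by 1.48 ± 0.32 on the log2 scale (adjusted p = 0.0165). Its levels overlapped, at 239, 272, 468 and 680 against 799, 1778, 505 and 1138 CPM, and without tumour 4 its adjusted p was 0.145.

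Genes of the complement system followed. Of 9 complement genes tested 5 rose and none fell, with a median of 1.44. C3, the central complement component, stood at 478, 439, 138 and 205 CPM in members and 34.0, 19.8, 3.76 and 3.66 in marker-negative cells. It rose by 4.65 ± 0.30 (adjusted p = 1.21e-06). C3 (ENSMUSG00000024164) lies on GRCm38 chromosome 17, 57203970 to 57228136, minus strand. C4b, which has a close paralog, stood at 256, 372, 153 and 188 against 21.3, 26.3, 3.76 and 12.8 CPM and rose by 4.20 ± 0.28. For C3 and C4b, members of every tumour lay above all marker-negative groups. C1s1 and Serping1, the gene of the inhibitor of the first complement protease, rose by 1.44 and 1.29, and Cd55, which encodes a shield against complement on the cell surface, rose by 1.76. Cd55 had an adjusted p of 0.0585 without tumour 3 and of 0.0603 without tumour 4. The summed macrophage markers were at 196, 103, 326 and 293 CPM in members of tumours 1 to 4 and at 187, 323, 428 and 222 in marker-negative cells, higher in members of tumours 1 and 4. The macrophage gene Lyz2 had a log2 fold change of 0.71 and did not pass (adjusted p = 0.381, higher in 3 of 3 mice). The part of macrophage RNA in the complement values was not tested.

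Of 11 chemokine and cytokine genes 5 rose, namely Ccl2, Cxcl12, Ccl11, Ccl8 and Il33, and none fell. Cxcl12, which attracts cells that bear CXCR4, stood at 495, 291, 291 and 353 CPM in members and 42.5, 158, 141 and 125 in marker-negative cells. It rose by 1.66 ± 0.33 (adjusted p = 0.00947). Ccl11, the eotaxin gene, rose by 1.31 ± 0.24 (adjusted p = 0.00501) with 222, 291, 195 and 182 against 166, 85.6, 62.9 and 73.3 CPM. Both genes were apart in all 4 tumours. The list's count changed with the samples left out: 1 of 11 rose without tumour 4. Without mouse 3, which gave tumours 3 and 4, 5 of 9 rose. Without tumour 4 Ccl11 alone of these genes passed, and Cxcl12 had an adjusted p of 0.0948, Ccl2 of 0.126, Ccl8 of 0.118 and Il33 of 0.186. Ccl8 (adjusted p = 0.121) and Il33 (adjusted p = 0.216) did not pass without tumour 3 either. Cxcl1 stood at 69.5 ± 41.5 against 9.77 ± 8.59 CPM and did not pass (adjusted p = 0.117). It passed without tumour 2 (adjusted p = 0.0133) and without tumour 3 (adjusted p = 0.0441).

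Wnt and growth factor genes gave single strong members rather than a shared move. Sfrp4 had the largest rise of the genes named by the rule. It stood at 342, 224, 223 and 242 CPM in members and at 12.8, 0, 0 and 5.50 in marker-negative cells, on 320 against 6 UMIs, a log2 fold change of 6.22 ± 0.39 (adjusted p = 1.21e-06). Sfrp4 (ENSMUSG00000021319) lies on GRCm38 chromosome 13, 19623104 to 19632994, plus strand. Of 12 Wnt pathway genes 3 rose (Sfrp4, Ccn5 and Sfrp1) and 1 fell, with a median near 0. The ligand gene Wnt5a fell by 1.43 on the log2 scale, with 25.6, 9.08, 16.6 and 28.5 against 68.0, 32.9, 48.9 and 71.5 CPM (adjusted p = 0.0402). Its adjusted p was 0.0858 without tumour 1, 0.0542 without tumour 3 and 0.110 without tumour 4. Sfrp1 did not pass without tumour 3 (adjusted p = 0.0838) or tumour 4 (adjusted p = 0.164). Ccn5, a matricellular gene, rose by 2.53.

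Vegfd, which encodes a growth factor for lymphatic vessels, stood at 111, 215, 73.7 and 79.7 CPM in members against 0, 52.7, 9.40 and 0, and rose by 3.26 ± 0.43 (adjusted p = 4.73e-04). Of 13 growth factor and receptor genes it rose with Ccn3, while Pdgfrb, a receptor gene of fibroblasts and mural cells, fell by 0.85 and Mdk, the midkine gene, by 1.10 on the log2 scale. Pdgfrb had an adjusted p of 0.0533 without tumour 1 and of 0.0852 without tumour 3, and Ccn3 of 0.141 without tumour 4. Of 14 TGF-beta and BMP genes the receptor genes Tgfbr2 and Tgfbr3 rose, by 1.02 and 1.26, and none fell. The list's median was 0.21. Tgfbr3 had an adjusted p of 0.0649 without tumour 4. Of 9 genes of the IGF pathway Igfbp6 rose and Igfbp3 fell by 1.22 on the log2 scale, and Igfbp3 did not pass without tumour 4 (adjusted p = 0.712). The median of the IGF list was -0.12. Beside these lists, 5.05% of all genes tested were called.

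Of 24 transcription factor genes tested, Klf4 and Klf6 rose and Runx2 fell, beside 5.05% called over all genes. Klf4 stood at 188, 185, 173 and 165 CPM in members and 63.8, 39.5, 44.2 and 67.8 in marker-negative cells, and rose by 1.79 ± 0.23 (adjusted p = 2.91e-04). Its level in members varied least among these, 181 ± 9.48 (SD, n = 3 mice). Runx2, a factor of the bone lineage, was at 10.6 ± 1.85 against 46.3 ± 6.04 CPM and fell by 2.02 on the log2 scale. Without tumour 4 Runx2 had an adjusted p of 0.126 and Klf6 of 0.0525. Of 19 immediate early and stress genes, which dissociation can induce, 5 rose, among them Fos by 0.93. Without tumour 4, 1 of the 19 passed, while the list's median went from 0.66 to 0.78. Without mouse 3, 5 of 15 passed, with a median of 0.59.

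Of 17 genes for detoxification and metal binding 6 rose and none fell, and 6 rose without tumour 4. Gstm1, a glutathione transferase gene with close paralogs, stood at 213, 403, 206 and 151 against 8.50, 6.59, 43.2 and 14.7 CPM and rose by 3.20 ± 0.37 (adjusted p = 1.43e-04). The metallothionein genes Mt2 and Mt1 rose by 2.27 and 1.28. Of 8 preadipocyte and lipid genes Fabp4, Gsn, Apoe and Apod rose and Fabp5 fell. Gsn, the gene of gelsolin, rose by 1.73 ± 0.19. Fabp4, a fatty acid binding protein gene, stood at 42.7, 84.8, 46.1 and 25.6 against 0, 0, 6.58 and 25.7 CPM, so the groups met in tumour 4. Its adjusted p of 0.0381 became 0.282 without tumour 3. Without tumour 4 Apoe had an adjusted p of 0.118, Apod of 0.120 and Fabp5 of 0.381, and without tumour 2 Fabp5 had 0.0686. No cell cycle gene of 10 and no ribosomal protein gene of 22 passed, beside 5.05% called over all genes. Without mouse 3, 6 of the 22 ribosomal protein genes rose.

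Among interferon response genes the calls went both ways. Of 8 interferon response genes Ifi27l2a, Bst2 and Ifitm3 rose and Ifitm1 fell. Bst2 did not pass without tumour 3 (adjusted p = 0.0735). Ifi27l2a stood at 453, 793, 269 and 196 against 76.5, 112, 31.0 and 25.7 CPM and rose by 2.88 ± 0.20 (adjusted p = 1.50e-06). Ifitm1 was at 8.54, 6.06, 55.3 and 8.54 CPM in members and 123, 0, 914 and 7.33 in marker-negative cells, so its fall of 3.80 on the log2 scale held in 2 of 3 mice and came mostly from tumour 3. Of 13 hypoxia and glycolysis genes 1 rose, Adm, the adrenomedullin gene, by 2.66, and none fell. The list's median was -0.16, and the share called was near the 5.05% over all genes.

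**Figure D3:**
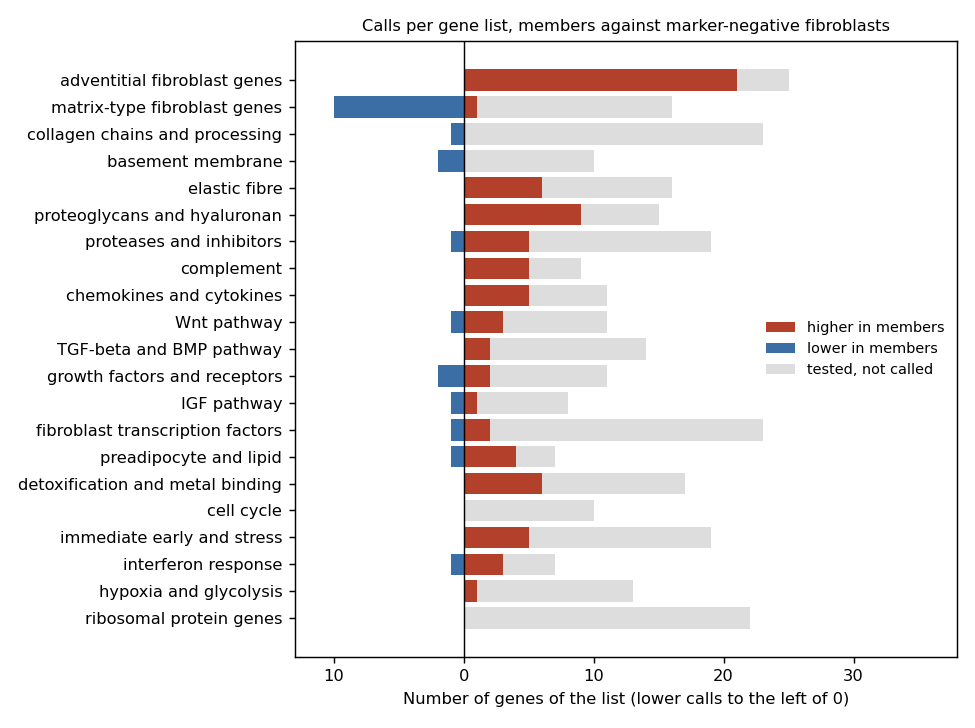
Number of genes of each list that were higher (red, to the right of 0), lower (blue, to the left) or tested and not called (grey) in members against marker-negative fibroblasts. The adventitial list has 21 of 25 higher, the matrix-type list 10 of 26 lower and 1 higher. The lists were chosen with earlier results of these data known.

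Of 26 matrix-type genes tested, 10 fell, 1 rose and 15 did not pass, with a median of -0.72. The count that fell was 5 without tumour 4, 14 without tumour 3 and 14 of 25 without mouse 3. Tagln, which encodes the actin-binding protein transgelin, stood at 299, 494, 302 and 345 CPM in members and 514, 1824, 632 and 821 in marker-negative cells. It fell by 1.27 ± 0.20 on the log2 scale (adjusted p = 0.00133). Myl9, a myosin light chain gene, was at 85.4, 81.7, 112 and 88.3 against 204, 389, 199 and 268 CPM and fell by 1.46 ± 0.24. Col11a1, a minor fibrillar collagen gene, was at 76.8, 36.3, 129 and 105 against 204, 138, 450 and 222 CPM and fell by 1.62 ± 0.21 (adjusted p = 4.56e-04). For Tagln, Myl9 and Col11a1 all member values lay below all marker-negative values, and all 3 passed with each tumour left out in turn.

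Acta2 stood at 282, 167, 199 and 285 CPM in members and 374, 1995, 405 and 722 in marker-negative cells, with tumour 2 far above the others in the second group. It fell by 1.72 ± 0.42 on the log2 scale and passed, but its adjusted p was 0.177 without tumour 4. Of the other basal epithelial markers, Krt17 stood at 0 to 8.54 CPM in members and 0 to 7.52 in marker-negative cells, and the part of basal epithelial RNA in the Acta2 values was not tested. Lrrc15 was at 248, 148, 337 and 376 against 663, 593, 282 and 694 CPM and fell by 1.06 ± 0.27 (adjusted p = 0.0369), but tumour 3 overlapped. Its adjusted p was 0.0565 without tumour 1 and 0.359 without tumour 4. Postn did not separate the groups, at 1494, 1750, 1949 and 1523 against 1305, 3378, 768 and 1371 CPM (log2 fold change 0.10 ± 0.25, adjusted p = 0.958). Without tumour 2, Postn was higher in members, by 0.61 (adjusted p = 0.00733). Cthrc1 likewise had 0.85 (adjusted p = 0.244) with all tumours and 1.63 (adjusted p = 8.86e-13) without tumour 2, whose marker-negative cells held 1297 CPM. Tnc had -0.91 (adjusted p = 0.0630), and passed without tumour 1 (adjusted p = 0.0266) and without tumour 3 (adjusted p = 0.00458).

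Other genes that fell belong to no matrix list. Spp1, the osteopontin gene, stood at 461, 78.7, 286 and 484 CPM in members and 1560, 1014, 898 and 2177 in marker-negative cells. It fell by 2.26 ± 0.27 on the log2 scale (adjusted p = 2.21e-04). Epithelial cells held 2047 CPM of Spp1, and the part of their RNA in this difference was not tested. Cdkn2a, a cell cycle inhibitor gene, was at 8.54, 21.2, 77.4 and 79.7 against 102, 158, 270 and 165 CPM and fell by 1.96 ± 0.29. Nes, the nestin gene, fell by 1.95, and Moxd1, on 7 UMIs in members against 124, by 3.38. Col26a1 had the lowest fold change of the genes named by the rule, a fall of 3.92 ± 0.41, from 59.5, 39.5, 245 and 38.5 CPM to 0, 6.06, 16.6 and 0. Ecrg4 fell by 1.92, and without tumour 4 its change was -1.81 and did not pass (adjusted p = 0.364). The agouti gene a fell by 1.62 (adjusted p = 0.0498), and without tumour 1 or tumour 4 it did not reach the filter on low counts.

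Members were next compared with the most similar other state, the 517 marker-negative cells with at least 2 UMIs of Postn and Lrrc15. This comparison uses the same members, and cells that are also in the first, so it is no independent evidence. Of 3548 genes tested 203 passed (5.72%), 147 higher (4.14%) and 56 lower (1.58%). The 4 tumours of each group did not overlap for 9.58% of the genes tested. Without tumour 4, 95 passed, and without mouse 3, 249 passed. Of 25 adventitial genes 21 rose, with a median of 1.72 beside 0.00 over all genes. Without tumour 4, 15 rose, and without mouse 3, 16 of 20. Of 24 matrix-type genes 13 fell and 2 rose. Without tumour 4, 5 fell, and without mouse 3, 14 of 22. Sfrp4 rose by 6.83 ± 0.39, with 0, 0, 0 and 5.96 CPM in the Postn or Lrrc15 cells. C3 rose by 5.40 ± 0.32, against 5.40, 20.6, 4.40 and 1.99 CPM there. Tnxb rose by 4.52 ± 0.28 and Ly6c1 by 4.18 ± 0.24. Chl1, which encodes a neural cell adhesion molecule, stood at 102, 93.9, 14.7 and 37.0 CPM in members and 0, 6.86, 1.47 and 1.99 in the other cells, and rose by 4.21 ± 0.62 (adjusted p = 6.96e-04).

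The genes lower in members than in the Postn or Lrrc15 cells included Moxd1, which fell by 3.65 ± 0.50 on the log2 scale, and Col26a1, which fell by 3.50 ± 0.39. Tagln fell by 1.38 ± 0.18 and Myl9 by 1.60 ± 0.22, and both passed with each tumour left out. Acta2 fell by 1.90 ± 0.38 (adjusted p = 0.00789), from 448, 2059, 464 and 771 CPM, but had an adjusted p of 0.103 without tumour 4. Tnc fell by 1.02 here (adjusted p = 0.0198). Its adjusted p was 0.124 without tumour 2 and 0.283 without tumour 4. Spon2, which encodes a secreted spondin, rose by 2.24 (adjusted p = 0.0138), and had an adjusted p of 0.192 without tumour 4. Against all marker-negative cells Spon2 did not pass (1.99, adjusted p = 0.0570), but did without tumour 1 (adjusted p = 0.0409), tumour 2 (adjusted p = 1.43e-07) or tumour 3 (4.61, adjusted p = 7.15e-06). It stood there at 117 CPM in tumour 3 against 0 to 12.8 in the others.

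Gene levels were followed along the number of marker UMIs per gated cell, in classes of 0, 1, 2, 3 to 5, and 6 or more UMIs (690, 209, 126, 175 and 203 cells). The number of UMIs also depends on a cell's depth, so this is a description. Tnxb had means over the mice of 9.97, 53.2, 53.6, 217 and 537 CPM along these classes, and Sfrp4 of 4.87, 2.18, 33.9, 121 and 543. Ly6c1 had 37.8, 72.2, 108, 306 and 1282 CPM. These genes were low up to a sum of 2 and highest in the cells with most marker UMIs. Mfap5 climbed more evenly, with 1776, 2132, 2873, 2989 and 3824 CPM.

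In means over the mice, the contractile and matrix-type genes Acta2, Col12a1 and Lrrc15 ran the other way. Acta2 had 961, 916, 521, 183 and 70.0 CPM along the same classes, Col12a1 929, 913, 692, 403 and 179, and Lrrc15 559, 505, 494, 267 and 87.0. Members with a sum of 2 were thus near the marker-negative cells in Lrrc15, with 494 ± 99.0 against 559 ± 124 CPM (SD, n = 3 mice). Postn stood at 1885 ± 1304 CPM at a sum of 0 and at 1393 ± 177 at 6 or more. At a sum of 0 mouse 2, with 39 cells, was the highest mouse for Postn. Mouse 2 had 12 cells at a sum of 1. All these means leave out the pairing by mouse. No direction is read for Postn, and the means of the other genes are a description only.

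**Figure D4:**
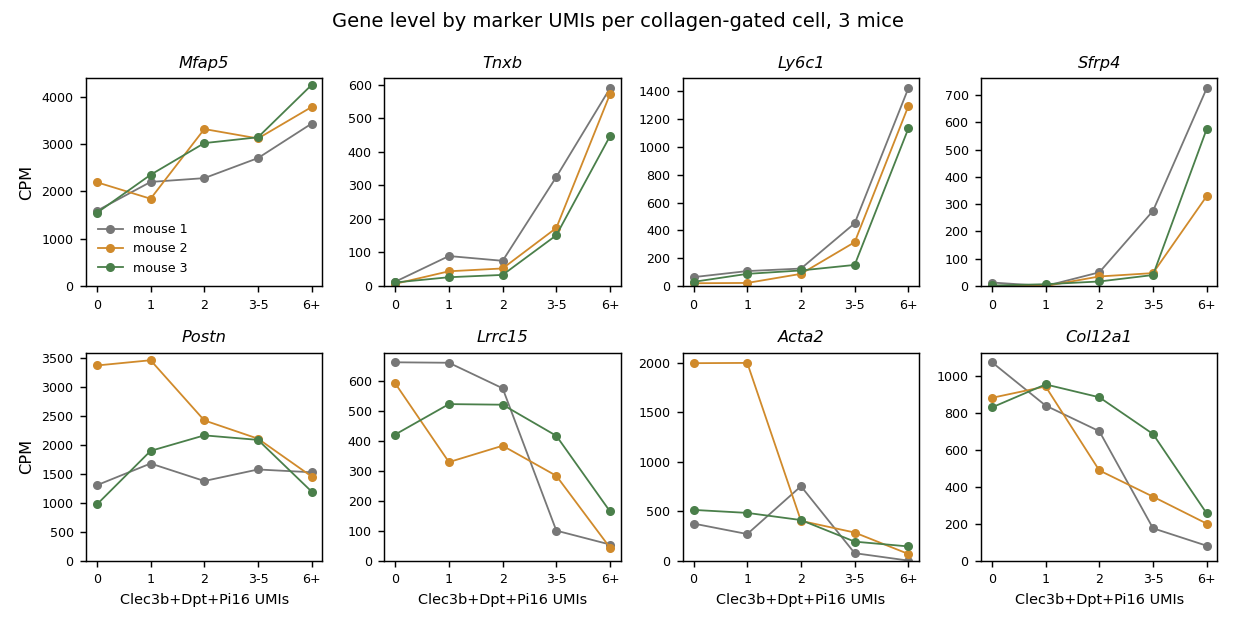
CPM of 8 genes in gated fibroblasts by the number of Clec3b, Dpt and Pi16 UMIs per cell, with 1 line per mouse. Tnxb, Ly6c1 and Sfrp4 are highest at 6 or more UMIs in all 3 mice, and Lrrc15 and Col12a1 are lowest there.

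The members were not uniform. Those with Clec3b and no Dpt (82 cells) were set beside those with Dpt and no Clec3b (75 cells). Mice 1 to 3 had 10, 16 and 56 of the former and 13, 9 and 53 of the latter, so values of mice 1 and 2 rest on few cells. The 9 cells of mouse 2 were too few for a test, so values are given only. Tnxb stood at 678, 226 and 271 CPM in the Clec3b cells of mice 1 to 3 and at 77.1, 27.5 and 77.8 in the Dpt cells. Tagln stood at 0, 203 and 171 CPM in the Clec3b cells and at 1079, 1786 and 784 in the Dpt cells. Each of these genes was apart in all 3 mice, in opposite directions. Acta2 was at 135 ± 98.0 against 682 ± 283 CPM (SD, n = 3 mice), Tnc at 84.6 ± 94.1 against 626 ± 242, and Postn at 1669 ± 630 against 2920 ± 189. Cxcl12 was at 546 ± 413 against 116 ± 33.3 CPM and Ly6a at 1001 ± 205 against 405 ± 191. Mfap5 had 3132 ± 286 against 3821 ± 596 CPM. In each mouse the Tagln level of the Dpt cells lay within the range given above for the marker-negative cells of the tumours. Their Tnxb level lay above that range in each mouse. The adventitial-type name thus also covers members with Tagln at the marker-negative level. The difference between the Dpt cells and the marker-negative cells was not tested.

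Members with a Pi16 UMI (406 cells) and without (98) are also given as values. Postn stood at 1917, 1921 and 1960 CPM with Pi16 and at 590, 1088 and 998 without, and Mfap5 at 3082, 3957 and 3639 against 2172, 2103 and 2988. Both were higher with Pi16 in each mouse. Tnxb stood at 308 ± 106 against 362 ± 18.0 CPM (SD, n = 3 mice). A last split was by UMIs of the other state's genes, which also depend on a cell's depth. There were 85 members without a Postn or Lrrc15 UMI, 14, 25 and 46 in mice 1 to 3. They held 726, 531 and 411 CPM of Tnxb and 0, 13.6 and 0 CPM of Tagln in these mice. The 353 members with at least 2 such UMIs held 209, 318 and 174 CPM of Tnxb and 487, 678 and 420 of Tagln. C3 stood at 671 ± 130 against 248 ± 141 CPM in these groups and Ly6c1 at 1269 ± 269 against 449 ± 113.

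The marker-negative cells of tumour 3 stood apart from those of the other tumours and enter every comparison above. Tnmd, the gene of tenomodulin, a marker of tendon cells, was at 660.5 CPM there against 111, 0 and 0 in tumours 1, 2 and 4, and at 24.0 in the members of tumour 3. It was 4.82 lower in members on the log2 scale, in 2 of 3 mice, and was chosen after its values were seen. Only 62.7% of the marker-negative cells of tumour 3 held 2 or more UMIs of Postn and Lrrc15, against 77.0%, 97.4% and 90.8% in tumours 1, 2 and 4. The counts of genes without this tumour were 213 against marker-negative cells and 243 against the Postn or Lrrc15 cells. Of the 14 TGF-beta and BMP genes 2 rose and 2 fell without it, and of the proteoglycan and hyaluronan genes 8 rose and 1 fell.

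The reporter gene did not pass the test between members and marker-negative fibroblasts. A tdTomato UMI was found in 29.2% of members, 37.1% of marker-negative cells and 97.9% of epithelial cells. Its level in members was 239, 173, 212 and 305 CPM in tumours 1 to 4, against 434, 92.2, 274 and 350 in marker-negative cells (log2 fold change of the entry tdTomatoOnlyWPRE -0.15 ± 0.25, adjusted p = 0.902). Epithelial cells held 2115 CPM on average, and the part of their free RNA in the member values was not tested.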

How the data were processed

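Single-cell RNA was counted in 4 tumour libraries of 3 mice. The authors deposited a matrix of unnormalized UMI counts for each library, with 55472 gene entries. Cell Ranger 2.2.0, FastQC and the mm10 (GRCm38) build are named per the submitters' processing notes, and the annotation release is not given in the sources used here. All deposited barcodes were used, without a doublet caller. The members and gene lists were chosen with earlier results of these data known.

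Counts of each group were summed per mouse (tumours 3 and 4 together) and fitted in edgeR 4.0.16 (R 4.3.3) with TMM scaling, filterByExpr, mouse as a block because both groups come from the same animal, and the quasi-likelihood F test. The 14 gate genes were left out before adjustment, as were Postn and Lrrc15 in the second comparison. A group needed at least 10 cells per mouse. CPM and its SD come from summed counts. The sums held 117122 to 893693 UMIs for members and 151858 to 1610140 for marker-negative cells, which limits the precision of low genes. To be named, a gene had to pass, move in the same direction in all 3 mice and have at least 50 CPM where it was higher. The 12 highest and 12 lowest fold changes were taken (8 and 8 in the second comparison), with the leading gene of each of 30 lists and the markers. Other list genes illustrate their list. Alternatives were size factors, DESeq2 1.42.0, no count filter, no block, tumours as units, thinning to 2000 UMIs, depth-matched cells, stricter rules and leaving out each tumour or mouse.

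In simulated counts for the first comparison (3773 genes), 52.0% of genes changed 2-fold and 98 of 100 changed 4-fold were called, and 4 of 3575 unchanged genes. The simulation gave all genes the same spread beyond counting error and all mice the same level, and had no tumour that stood apart. Its rates may therefore not hold for these data.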

Additional observations from a re-analysis of the deposited data

Results flagged for a closer look

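Of 123 groups of 4 tumours that were examined, 17 had a tumour whose gap to the nearest other exceeded Dixon's 95% critical value. Chance alone gives about 1 in 20 such groups, and values of the same tumour are not independent.

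In members, tumour 1 stood apart for Sfrp4, with 342 CPM against 223 to 242 in the others, and for Mfap5, with 2792 against 3515 to 3576. Tumour 2 was highest for the gate gene Col3a1, at 6767 CPM. Tumour 3 was highest for Col4a1, at 385 CPM, and for Ifitm1, at 55.3 CPM. Tumour 4 was highest for Lcn2, a gene that epithelial cells express, at 914 CPM.

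In marker-negative cells, tumour 2, with 39 such cells, was highest for Dmkn (13.2 CPM), Pcolce2 (13.2), Efemp1 (32.9), Ndufa4l2 (119), Mfap5 (2193) and Cthrc1 (1297). Tumour 3 was highest there for Col26a1 (245 CPM), Spon2 (117), Ifitm1 (914) and S100b (225).

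The share of members among gated fibroblasts was 65.8% in tumour 2 against 29.2% to 34.2% in the other tumours.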

How the results depend on the processing

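Against marker-negative cells 189 genes passed, and 99 with DESeq2, 292 without the count filter (where 63.4% were higher, beside 76.7%), 121 with cells thinned to 2000 UMIs, and 101 to 265 with a tumour or mouse left out. Against Postn or Lrrc15 cells 203 passed, and 97 with DESeq2, 124 with thinned cells, 109 with the gate applied after thinning, 123 in cells with 0 UMIs of other cell types' genes, and 95 to 249 with a tumour or mouse left out. With no replicate block, that is without the pairing by mouse, 67 and 72 genes passed. Of the counts with a tumour or mouse left out, the lowest were those without tumour 4. Without mouse 3, which takes out tumours 3 and 4 together, 224 and 249 genes passed. The share of members in tumours 1 to 4 was 18.2%, 53.8%, 24.8% and 24.8% in thinned cells, 45.9%, 73.8%, 45.8% and 52.7% with at least 1 marker UMI, 15.8%, 49.0%, 19.7% and 18.4% with at least 4, and 29.5% in tumour 4 with at least 30 collagen UMIs. Of the 119 genes followed through the alternatives of the first comparison and the 125 of the second, none changed sign past the threshold. A gene that was not tested in an alternative, as when below its count filter, gave no result there and is not counted. Many of these genes were chosen because they passed in the main fit on the same cells, so a kept sign is no independent evidence. In the first, 1512 gene results kept their side of the threshold, 255 lost a call and 31 gained it. In the second these were 1529, 332 and 12. The causes were not tested. Depth limits genes below about 50 CPM, which rest on few UMIs in mouse 1. The Clec3b and Dpt subsets were not tested under any alternative, because 1 group had 9 cells in mouse 2.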
